A study of Mus musculus with 48 samples.

Results

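The 10 genes described here encode enzymes that make serine, asparagine, proline and cysteine or that carry 1-carbon units. They are Phgdh, Psat1, Psph, Shmt2, Mthfd2, Mthfd1l, Asns, Aldh18a1, Pycr1 and Cth, 10 of the 51789 gene IDs in the count table. They were chosen by their measured response to the compound AP-3-84 in 2 populations of peritoneal macrophages, ascites and thio, with Mthfd2 in view, which was higher after the compound in thio and hardly different in ascites. The values of these 2 responses and of their difference are therefore given as a description, and no test of them is read. The bone marrow-derived macrophages, and the levels in vehicle, were not named in that choice and are tested. The 6 peritoneal vehicle libraries nonetheless entered the responses that were. Earlier results of these data were known when the genes were chosen, so it is not established that these tests are independent of the choice.

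Gene expression was measured in mouse macrophages of 8 populations, each kept for 4 h with 10 µM AP-3-84 or with an equal amount of DMSO, the vehicle. The labels name the compound without describing it. This makes 16 groups, with 3 libraries in each. Ascites macrophages are F4/80-positive cells from B6(Cg)-Tyrc-2J/J mice, taken by magnetic beads on day 45 after the injection of ID8, a line of mouse ovarian tumour cells. Thio macrophages, also taken by magnetic beads, are from wild-type C57BL/6 mice on day 4 after an injection of 1 ml of 3% thioglycollate, which causes a sterile inflammation of the peritoneal cavity. Tumour, irritant, day and host genotype differ together between these populations, so their parts cannot be told apart. The other 6 populations were grown from bone marrow of wild-type (WT) or p53 knockout (KO) C57BL/6 mice for 6 days in M-CSF at 10 ng/mL. M0 cells had no polarizing cytokine, M1 cells had a further 24 h in LPS (100 ng/mL) and IFN-γ (50 ng/mL), and M2 cells had 24 h in IL-4 and IL-13 (10 ng/mL each). Genotype and state are joined in the names below, from WT_M0 to KO_M2.

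Serine is made from the glycolytic intermediate 3-phosphoglycerate by phosphoglycerate dehydrogenase (Phgdh), phosphoserine aminotransferase (Psat1) and phosphoserine phosphatase (Psph). In mitochondria Shmt2 moves a carbon from serine to folate, Mthfd2 oxidises that carbon, and Mthfd1l releases it as formate, which feeds purine and thymidylate synthesis in the cytosol. Asparagine synthetase (Asns) makes asparagine from aspartate and glutamine, Aldh18a1 and Pycr1 make proline from glutamate, and cystathionine gamma-lyase (Cth) makes cysteine. Many of these genes are known targets of ATF4, the transcription factor of the integrated stress response, which binds C/EBP-ATF elements as a dimer with C/EBP proteins.

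Of the 10 genes, 9 had a promoter in the RefSeq table (GRCm38.p6), all but Cth. Across 32851 promoters of all genes, the C/EBP-ATF element TGATGNAA was found on either strand in the 250 bases before the start in 3.45%, and the E-box CACGTG in 6.02%. The elements do not overlap each other. The first was found in Asns and Pycr1, the second in Aldh18a1. These 3 matches, the only ones among the members' promoters, are shown. All 3 genes lie on the minus strand, each line reads 5′ to 3′ in the gene's direction, and capitals mark the match.
Asns, chr6:7693214-7693243, match 23 to 16 bases before the RefSeq start: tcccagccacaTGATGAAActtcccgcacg
Pycr1, chr11:120643833-120643862, match 103 to 96 bases before the start: tgccctgtgtaTGATGCAAtgcacaaggct
Aldh18a1, chr19:40588505-40588534, match 59 to 54 bases before the start: ggagggggccgcCACGTGgagcgtgggcgc
Mthfd2, whose values carry most of what follows, had neither match in the 250 bases before its RefSeq start. The 100 bases next to that start, which fall within the gene span of GENCODE M21 because a longer transcript begins farther upstream, are shown for comparison.
Mthfd2, chr6:83317605-83317704, minus strand: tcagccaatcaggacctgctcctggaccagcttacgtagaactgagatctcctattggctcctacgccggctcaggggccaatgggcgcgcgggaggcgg
A match is a description of letters, and a window without one says nothing about a factor's binding. Asns lies at chr6:7675169-7693254, Mthfd2 at chr6:83305691-83325908, Shmt2 at chr10:127517123-127522444, Psat1 at chr19:15904678-15947337, Phgdh at chr3:98313170-98339990 and Mthfd1l at chr10:3973118-4167081 in GENCODE M21 (GRCm38).

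Levels are counts scaled to library size (CPM, with TMM factors), computed apart for the 12 peritoneal libraries and the 36 from bone marrow, so a level set across these sets is not on one normalised scale. Reads mark 3′ ends and are not divided by length, so levels are compared within a gene only. Total counts were 15532373 to 19417581 per peritoneal library and 3081707 to 4645148 per bone marrow-derived library. All 8 macrophage markers (Adgre1, Csf1r, Cd68 and others) were detected in every library, with summed levels of 23917 to 34808 CPM in peritoneal libraries, but from 18476 down to 5969.95 CPM in KO_M2 vehicle. The p53 target Cdkn1a was 555 to 1119 CPM in the 18 WT libraries and 34.1 to 292 CPM in the 18 KO libraries, which separates the genotypes as titled although the genotype field calls all 36 wild-type. Trp53 itself overlapped, at 4.79 to 13.2 CPM in WT and 2.70 to 9.11 in KO libraries, and whether its 3′ end lies in the deleted part is not given. In 15 of the 36 bone marrow-derived libraries the closest library by correlation belonged to another group, against 0 of the 12 peritoneal ones. Among them was KO_M0 AP-3-84 replicate 3, at r = 0.957 with a KO_M0 vehicle library and at most 0.939 with its own group. KO_M2 vehicle replicate 1 was another, at r = 0.977 with a KO_M2 AP-3-84 library and at most 0.952 with its own group. The labels do not say that replicates came from separate animals or cultures, so p-values measure the spread between these libraries, which may be technical. In bulk RNA, fewer cells of a type and less RNA per cell cannot be told apart.

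Mthfd2 was well covered, with 10392 counts over the peritoneal and 17761 over the bone marrow-derived libraries. Its group means ran from 10.6 ± 1.32 CPM (SD, n = 3) in thio vehicle to 232 ± 109 in KO_M0 AP-3-84. After thio vehicle came KO_M0 vehicle at 32.3 ± 4.63 and thio AP-3-84 at 33.3 ± 2.43. Peritoneal and bone marrow-derived groups were normalised apart, so nothing is read from the order across these sets. The ascites groups followed at 76.3 ± 1.29 in vehicle and 84.3 ± 4.43 with AP-3-84. The 6 WT groups and KO_M2 with AP-3-84 lay between 93.1 ± 4.72 and 119.7 ± 11.7, and each of these overlapped its neighbours in the order. KO_M2 vehicle (151 ± 32.4), KO_M1 vehicle (174 ± 16.2) and KO_M1 with AP-3-84 (190.4 ± 15.8) were next below the top, and each overlapped the next. Asns ran from 0.824 ± 0.492 CPM in thio vehicle to 70.9 ± 30.5 in KO_M0 AP-3-84.

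**Figure D1:**
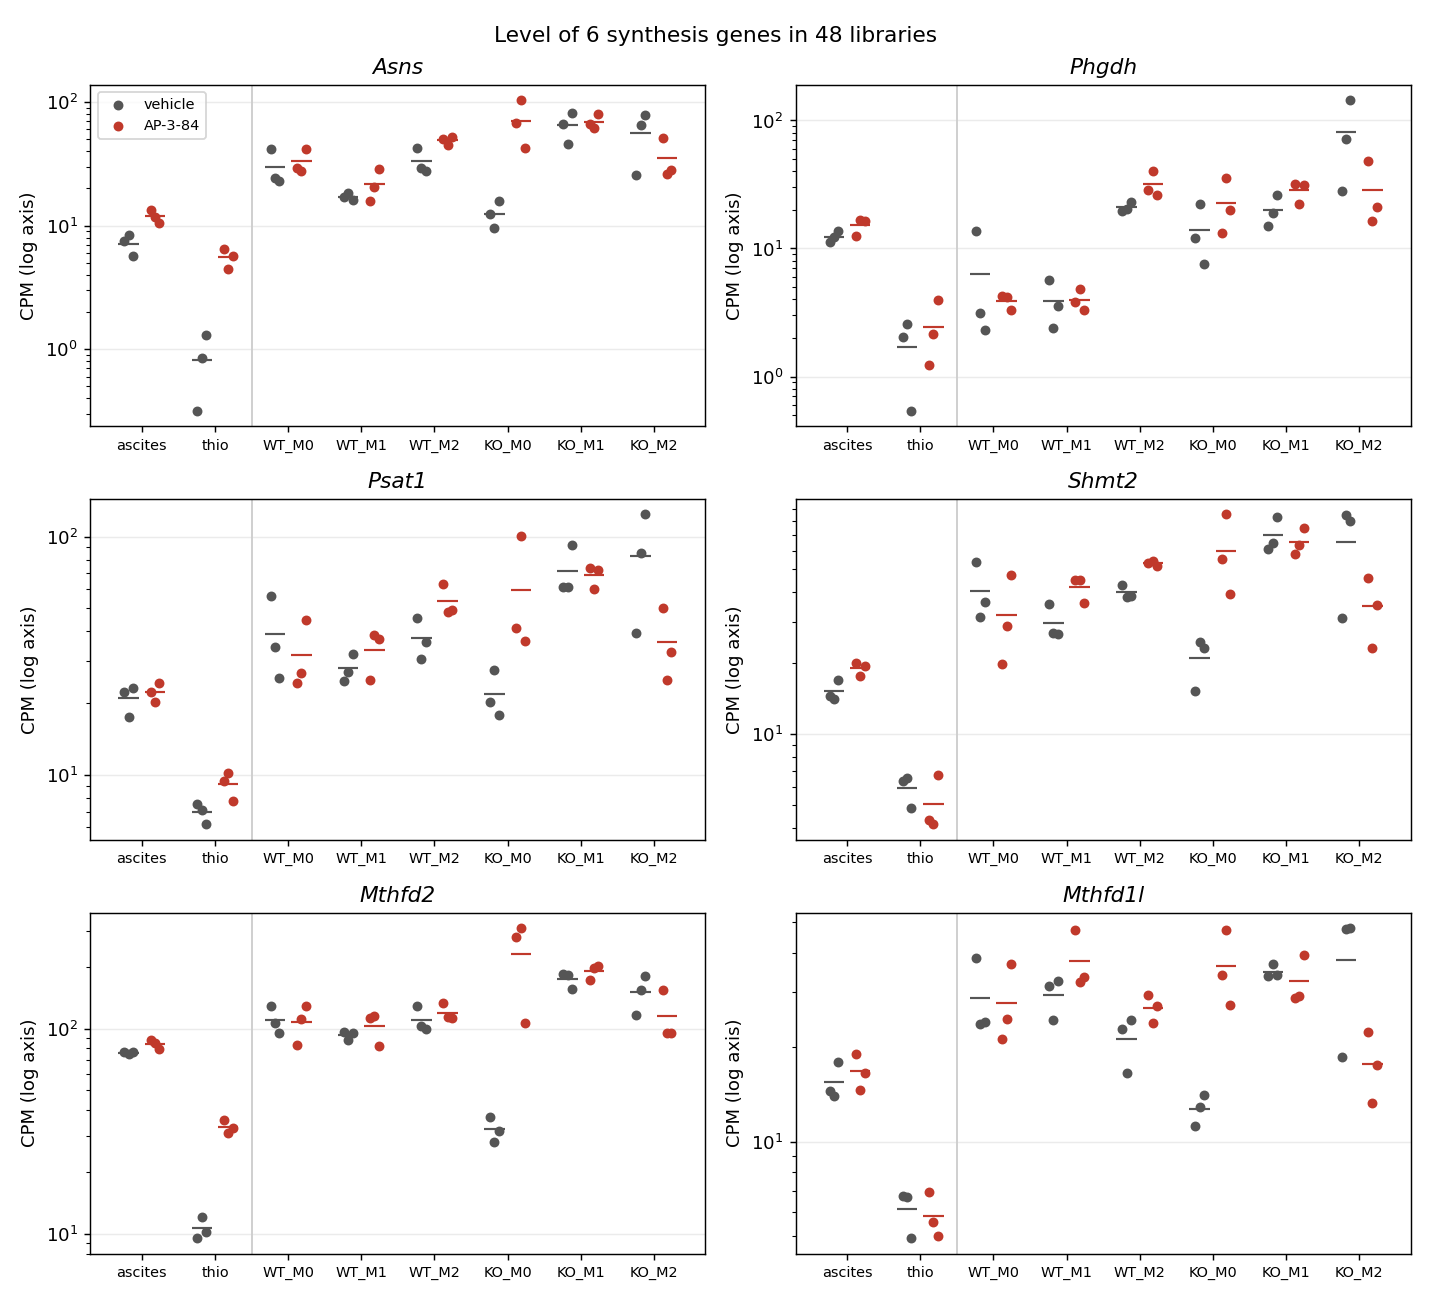
Level in CPM (log axis) of 6 genes in each of the 48 libraries, by population, with vehicle in grey and AP-3-84 in red and a line at each group mean. Points left of the vertical line were normalised apart from those right of it. KO_M0 vehicle libraries of Mthfd2 sit at 28.0 to 37.2 CPM and those with AP-3-84 at 106 to 309 CPM.

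Psph, Aldh18a1, Pycr1 and Cth were thinly covered. Psph had 2 to 95 counts per library, Aldh18a1 1 to 37, Pycr1 0 to 19 and Cth 0 to 11. Pycr1 was at 0 in 1 peritoneal and 5 bone marrow-derived libraries, and Cth in 2 and 19. A filter on low counts left 9 of the 10 genes in the peritoneal fit (all but Cth) and 8 in the bone marrow-derived fit (all but Cth and Pycr1). Differences in these genes were often not detectable at this depth.

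In thio macrophages AP-3-84 went with higher Mthfd2 and Asns. Mthfd2 was at 9.51, 12.1 and 10.3 CPM in vehicle and at 35.9, 31.1 and 32.9 with AP-3-84. All 3 treated libraries lay above all 3 vehicle libraries, with a log2 fold change of 1.65 (SE 0.10), or 3.13-fold. Asns was at 0.319, 0.850 and 1.30 CPM in vehicle and at 6.52, 4.48 and 5.69 with the compound, again without overlap, a log2 fold change of 2.72 (SE 0.33), or 6.58-fold. Pycr1, the last enzyme of proline synthesis, had 2 counts over the vehicle libraries and 19 over the treated ones. That is a ratio of 10.5 after scaling by totals, with an exact 95% interval of 2.52 to 92.5 that covers counting error only. Pycr1 reached the level the low-count filter asks for in 0 libraries of either thio group. Its ratio is a description, and no test is read from the interval.

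The other members of the group gave smaller values in thio macrophages. Psat1 was at 7.53, 7.11 and 6.18 CPM in vehicle and at 9.43, 10.2 and 7.76 with AP-3-84, a log2 fold change of 0.40 (SE 0.15). The other serine pathway and mitochondrial folate genes had overlapping groups. Their log2 fold changes were 0.53 for Phgdh, -0.10 for Psph, -0.22 for Shmt2 and -0.06 for Mthfd1l. Thus Mthfd2 stood at 3.13 times its vehicle level while the enzymes before and after it in the mitochondrial folate route, Shmt2 and Mthfd1l, stood at 0.858 and 0.957 times theirs. Aldh18a1, the first enzyme of proline synthesis, had a log2 fold change of -0.68 (SE 0.54) on 41 counts in vehicle and 23 with AP-3-84.

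In ascites macrophages the values stayed closer to vehicle. Mthfd2 was at 76.9, 74.8 and 77.2 CPM in vehicle and at 88.4, 84.8 and 79.6 with AP-3-84. The groups did not overlap, yet the log2 fold change was 0.14 (SE 0.09). Asns was at 7.49, 8.33 and 5.64 CPM in vehicle and at 13.5, 11.8 and 10.6 with the compound, a log2 fold change of 0.74 (SE 0.26). Shmt2 gave 0.33 (SE 0.17), and the values of the other 6 genes lay between -0.01 and 0.30. The response in ascites minus that in thio was -1.50 (SE 0.13) for Mthfd2 and -1.98 (SE 0.42) for Asns. These contrasts chose the genes, so the following counts of calls were fixed in part by the choice, and nothing is read from them. Of the 9 genes edgeR called 2 higher in thio, where 2.51% of 16955 genes were called higher and 1.82% lower. It called 0 in ascites (1 at an unadjusted p under 0.05, DESeq2 0), where 1.79% were called in either direction, and 1 lower in the difference, where 0.0413% were called lower and 0.0767% higher.

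The lists of regulators and transporters were chosen with earlier results of these data known. Their counts of edgeR calls in both populations are therefore a description, and nothing is read from them. Of 17 tested regulators of the ATF4 pathway, 10 were called higher and 0 lower in thio and 4 higher and 0 lower in ascites macrophages. Of all genes, 2.51% were called higher and 1.82% lower in thio, and 1.79% in either direction in ascites. Atf4 itself was at 150 ± 3.85 CPM in thio vehicle and 240 ± 9.94 with AP-3-84, and at 174 ± 2.97 and 236 ± 37.7 in ascites. Trib3, a feedback inhibitor of ATF4, rose from 2.58 ± 0.86 to 11.3 ± 1.04 CPM in thio and from 6.63 ± 1.37 to 14.1 ± 2.80 in ascites. Ddit3 (CHOP) was at 43.4 ± 0.39 and 66.8 ± 9.67 CPM in thio, and at 79.9 ± 15.4 and 116 ± 10.1 in ascites, where it was not called. Of 11 amino acid transporters tested, 4 rose and 1 fell in thio, and 2 rose and 1 fell in ascites. Slc7a11, the cystine importer, rose from 11.1 ± 2.09 to 36.5 ± 1.69 CPM in thio and from 34.7 ± 3.51 to 72.3 ± 8.11 in ascites. Slc36a1, a lysosomal transporter, was the one that fell, by 0.30 and 0.33 on the log2 scale. Slc7a1, which imports arginine and lysine, rose from 7.26 ± 0.30 to 15.3 ± 0.88 CPM in thio and was at 31.8 ± 1.78 and 35.4 ± 2.43 in ascites. Of the 23 other 1-carbon and folate genes tested, 0 rose and 1 fell (Mthfd1, log2 fold change -0.71) in thio. In ascites 0 were called in edgeR, 2 had an unadjusted p under 0.05, and DESeq2 called 0.

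**Figure D2:**
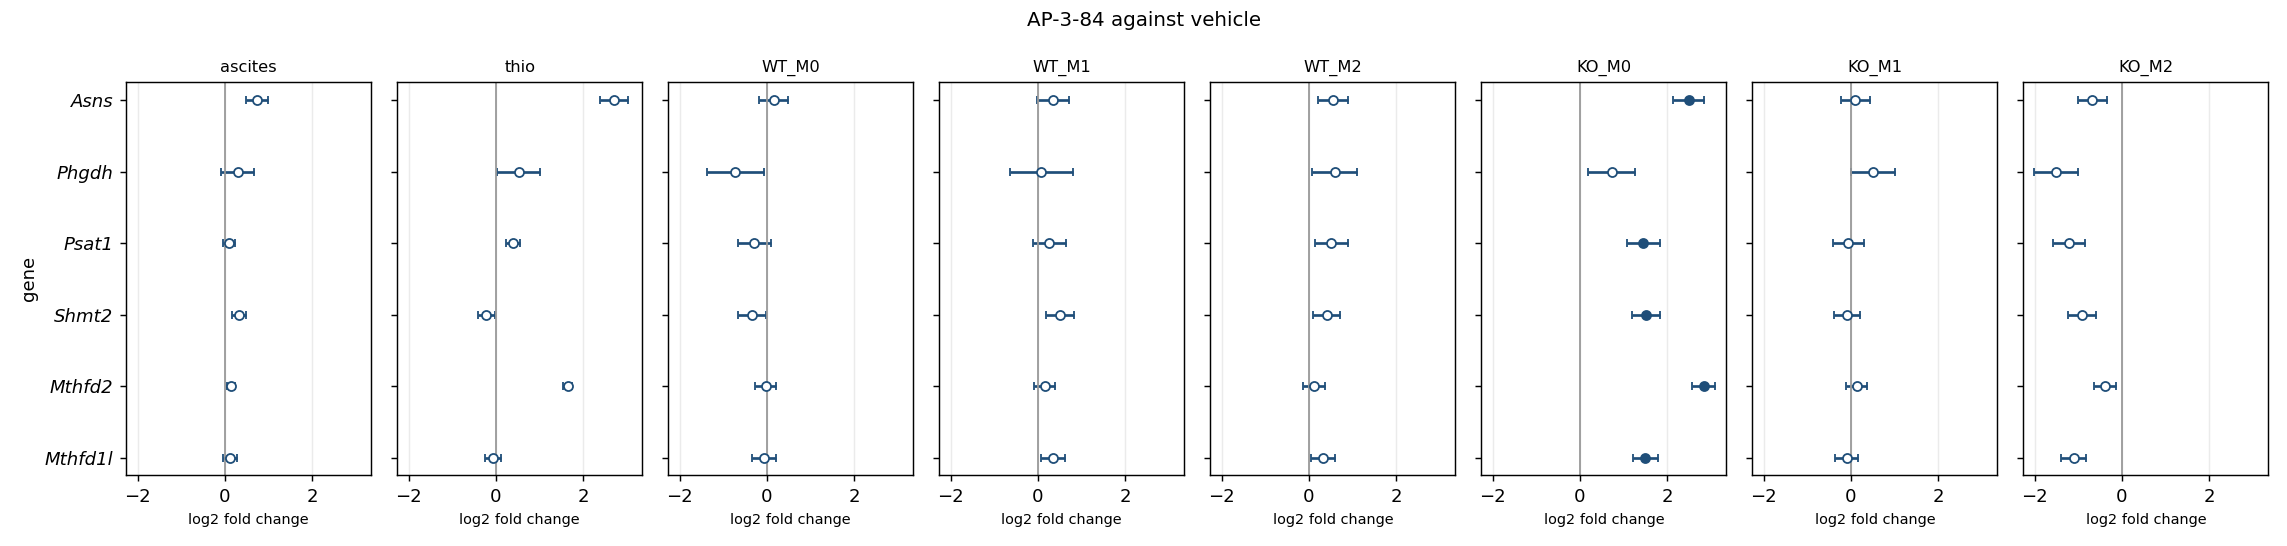
Log2 fold change of AP-3-84 against vehicle (points) with its standard error (bars) for 6 genes in each of the 8 populations, 3 libraries against 3. Filled points passed an adjusted p under 0.05. Points of ascites and thio are open throughout because these contrasts chose the genes. Of the 6 bone marrow-derived populations, KO_M0 alone holds filled points, for Asns, Psat1, Shmt2, Mthfd2 and Mthfd1l.

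In KO_M0 macrophages AP-3-84 raised Mthfd2, Asns, Shmt2, Mthfd1l and Psat1, 5 of the 8 genes tested, where 12.1% of 11779 genes were called higher and 8.57% lower. The median log2 fold change of the 8 genes was 1.48, against -0.03 over all genes tested. Mthfd2 was at 37.2, 28.0 and 31.6 CPM in vehicle and at 279.7, 309 and 106 with the compound, 7.16-fold higher (log2 2.84, SE 0.27, edgeR adjusted p = 3.37e-08). Every treated library lay above every vehicle library, and replicate 3 was well below the other two. Asns was at 12.3, 9.54 and 15.7 CPM in vehicle and at 67.2, 103 and 42.4 with AP-3-84, 5.64-fold higher (log2 2.49, SE 0.37, adjusted p = 1.83e-05). Its groups did not overlap, and replicate 2 was highest.

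The mitochondrial folate enzymes on both sides of Mthfd2 rose as well in KO_M0. Shmt2 was at 15.2, 24.6 and 23.3 CPM in vehicle and at 55.3, 85.6 and 39.2 with AP-3-84 (log2 fold change 1.52, SE 0.33, edgeR adjusted p = 0.0013). Mthfd1l was at 11.3, 12.9 and 14.1 CPM in vehicle and at 33.9, 47.4 and 27.3 with the compound (1.50, SE 0.29, adjusted p = 0.00039). Neither gene's groups overlapped. Psat1, the aminotransferase of serine synthesis, was at 20.2, 27.4 and 17.9 CPM in vehicle and at 41.4, 101 and 36.3 with AP-3-84 (1.45, SE 0.38, adjusted p = 0.0076). Without its highest library, AP-3-84 replicate 2, the log2 fold change was 0.84 and did not pass (adjusted p = 0.163). With only the 2 compared groups fitted it did not pass either (adjusted p = 0.0657). Without AP-3-84 replicate 3, the library that stood closer to vehicle, Mthfd2 gave 3.19, and all 5 genes were called. Phgdh, the entry enzyme of serine synthesis, was at 12.1, 22.2 and 7.57 CPM in vehicle and at 13.1, 35.3 and 20.1 with the compound. Its groups overlapped, and the log2 fold change of 0.73 (SE 0.53) did not pass. Psph (0.19, SE 0.73) and Aldh18a1 (1.00, SE 0.88) did not pass either. Pycr1 and Cth, left out of the fit, had 16 and 4 counts over the vehicle libraries and 25 and 3 over the treated ones.

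These 5 genes also passed the test of the difference between the KO_M0 and the WT_M0 response, where 10% of all genes were called higher and 6.99% lower. The difference was 2.87 (SE 0.36, edgeR adjusted p = 4.8e-06) for Mthfd2 and 2.34 (SE 0.50) for Asns. It was 1.86 for Shmt2, 1.74 for Psat1 and 1.56 for Mthfd1l. The call for Psat1 was lost in 5 of the 12 fits that left out 1 library. These were WT_M0 vehicle replicate 1, WT_M0 AP-3-84 replicates 1 and 2, KO_M0 vehicle replicate 3 and KO_M0 AP-3-84 replicate 2, without which the difference was 1.13. It was also lost with only the compared groups fitted (1.76, edgeR adjusted p = 0.0703). In WT_M0 itself, Mthfd2 was at 129, 107 and 94.8 CPM in vehicle and at 83.0, 111 and 129 with AP-3-84, with overlap. Its log2 fold change was -0.03, with an approximate 95% interval of -0.51 to 0.45. For Asns the value was 0.16 (-0.51 to 0.82).

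Other genes moved in KO_M0 as well, where 12.1% of all genes were called higher and 8.57% lower. The lists counted here were chosen with earlier results of these data known, so their counts are a description. Of 12 proliferation genes, such as Birc5 and Mcm5, 9 rose with AP-3-84, and their summed level was 261 to 321 CPM in vehicle and 513, 1390.5 and 561 CPM in treated replicates 1 to 3. Replicate 2 thus held the highest proliferation level and the highest Mthfd2, Asns, Psat1, Shmt2 and Mthfd1l. The summed macrophage markers were 32521 to 39143 CPM in vehicle and 39157, 18132 and 29347 CPM in the same 3 treated libraries. Summed neutrophil markers were 569 to 720 CPM in vehicle and 296 to 478 with AP-3-84. Summed B cell markers (5 genes) were 2.16 to 5.23 CPM in vehicle and 16.2, 22.7 and 6.62 in treated replicates 1 to 3. The part of any of these in the result was not tested. Of the 21 other 1-carbon and folate genes tested, 5 rose and 0 fell, among them Shmt1, the cytosolic counterpart of Shmt2 (1.54 to 7.68 CPM), and Atic, which uses formyl folate in purine synthesis (29.3 to 56.6 CPM). Of 17 ATF4 regulators, 8 rose and 2 fell. Atf4 was at 139 ± 22.8 CPM in vehicle and 285 ± 91.1 with AP-3-84, Trib3 at 2.64 ± 0.66 and 21.0 ± 15.8, and Ddit3 at 29.7 ± 5.49 and 62.5 ± 29.2. Of 11 transporters 4 rose and 1 fell, with Slc7a1 at 19.2 ± 2.58 CPM in vehicle and 109 ± 42.9 with the compound.

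**Figure D3:**
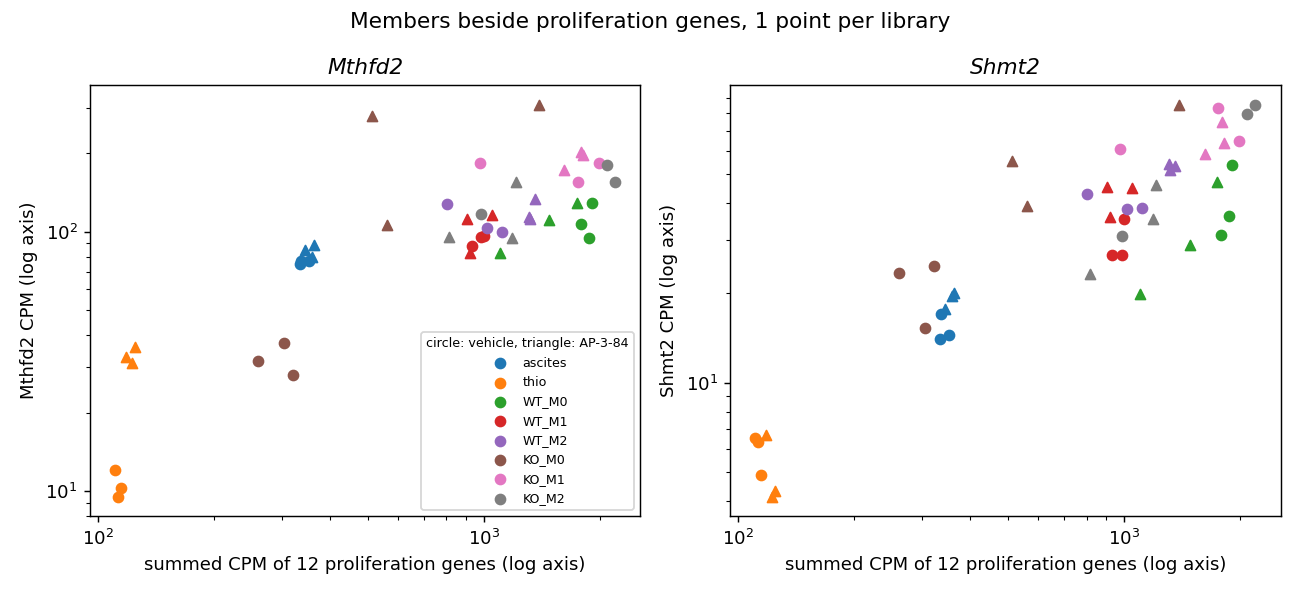
Level of Mthfd2 (left) and Shmt2 (right) in CPM against the summed level of 12 proliferation genes, both on log axes, 1 point per library, with circles for vehicle and triangles for AP-3-84. Peritoneal and bone marrow-derived libraries were normalised apart. KO_M0 vehicle libraries lie at 261 to 321 CPM of proliferation genes, and the treated libraries lie above them on both axes, at 513 to 1390.5 CPM.

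In the other bone marrow-derived populations 0 of the 8 genes passed the test of AP-3-84 against vehicle. In WT_M0, WT_M1, WT_M2 and KO_M1, edgeR called 0, 0 genes had an unadjusted p under 0.05 and DESeq2 called 0. The shares of all genes called in either direction were 0.144%, 0.017%, 1.21% and 0%. Mthfd2 was at 96.6, 87.7 and 94.9 CPM in WT_M1 vehicle and at 112, 115 and 82.7 with AP-3-84, a log2 fold change of 0.15 (-0.34 to 0.64). In WT_M2 it was at 128, 103 and 99.4 CPM and at 133, 114 and 112, a log2 fold change of 0.12 (-0.37 to 0.60). KO_M1 gave 184, 183 and 156 CPM in vehicle and 172, 197 and 202 with AP-3-84, a log2 fold change of 0.13 (-0.35 to 0.61). The upper bounds of all 3 intervals lie below the log2 fold change of 2.84 in KO_M0. In WT_M2 the log2 fold change was above 0 for all 8 genes, with a median of 0.46 against 0.00 over all genes, although 0 passed. Shmt2 there was at 42.9, 38.3 and 38.6 CPM in vehicle and at 53.4, 54.1 and 51.7 with AP-3-84. In the same libraries the summed proliferation genes were 801 to 1111 CPM in vehicle and 1310.0 to 1357 with AP-3-84. Summed dendritic cell markers (5 genes) were 6.40 to 12.7 and 3.40 to 5.09 CPM. Summed neutrophil markers were 3952, 575 and 449 CPM in vehicle and 529, 424 and 200 with AP-3-84. Their part was not tested.

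ATF4 regulators did not pass in these 4 populations either (0 of 17 in each, with 4, 4, 3 and 0 at an unadjusted p under 0.05 and 1, 2, 0 and 0 called by DESeq2). Trib3 was nonetheless at 3.18 ± 0.80 CPM in WT_M1 vehicle and 16.9 ± 3.61 with AP-3-84, and Ddit3 at 39.9 ± 8.10 and 97.1 ± 16.6, with edgeR adjusted p = 0.214 and 0.299.

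In KO_M2 the values pointed down. All 8 genes had a log2 fold change below 0, with a median of -1.01 against 0.00 over all genes. None of these passed in edgeR in KO_M2, where 0.0509% of all genes were called. Of the 8, 4 had an unadjusted p under 0.05 and DESeq2 called 1. In WT_M0, 7 of 8 were below 0, with a median of -0.32. Phgdh was at 28.1, 71.9 and 143 CPM in KO_M2 vehicle and at 48.4, 16.3 and 21.1 in KO_M2 with AP-3-84, a log2 fold change of -1.51 (SE 0.50). Psat1 was at 39.3, 85.4 and 124 CPM and at 50.3, 25.0 and 32.7, and Shmt2 at 31.0, 85.1 and 79.9 and at 45.9, 23.1 and 35.4. In all 3 genes vehicle replicate 1 lay far below the other vehicle libraries and inside the treated range. Without that library, which stood closer to the treated group, 4 genes passed as lower. They were Phgdh (-1.92), Psat1 (-1.54), Mthfd1l (-1.43) and Shmt2 (-1.25). Mthfd2 was at 116, 155 and 181 CPM in vehicle and at 155, 95.1 and 94.7 with the compound, with overlap. The same libraries differed in other ways: summed proliferation genes were 985, 2188 and 2083 CPM in vehicle replicates 1 to 3 and 814 to 1212 CPM with AP-3-84. Summed neutrophil markers (6 genes, 4 of them detected in all 36 libraries) were 339, 606 and 3276 CPM in vehicle and 533, 277 and 276 with AP-3-84. Macrophage markers summed to 18476, 9411 and 5969.95 CPM in vehicle replicates 1 to 3 and to 14942, 19140 and 13909 with AP-3-84. Their part in the values was not tested. The difference from the WT_M2 response had 0 of 8 genes called in edgeR, 5 at an unadjusted p under 0.05 and 2 by DESeq2, where 1.77% of all genes were called. Without KO_M2 vehicle replicate 1 it had 5 called, and without KO_M2 AP-3-84 replicate 1 it had 1. The KO_M1 minus WT_M1 difference had 0, 0 and 0, where 0.00849% were called.

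Without the compound, ascites macrophages held more of these transcripts than thio macrophages. The vehicle libraries compared also entered the responses by which the genes were chosen, so this test is not independent of that choice. Of 8 genes, 7 were higher and 0 lower, where 20.3% of 16955 genes were called higher and 13.4% lower. Pycr1 is left out of that count, because it reached the level the low-count filter asks for in the 6 ascites libraries and in 0 of the 6 thio libraries. Mthfd2 stood at 76.3 ± 1.29 CPM against 10.6 ± 1.32, 7.18-fold higher (log2 2.84, SE 0.10, edgeR adjusted p = 2.89e-13). Asns stood at 7.15 ± 1.37 against 0.824 ± 0.492 (3.08, SE 0.32, adjusted p = 6.01e-07). In the serine pathway Phgdh was at 11.3, 12.3 and 13.6 CPM against 2.04, 2.55 and 0.542 (2.87, SE 0.45, adjusted p = 0.000302). Psat1 (20.9 ± 3.04 against 6.94 ± 0.69 CPM) and Psph (3.87 ± 0.59 against 1.28 ± 0.19 CPM) both had a log2 fold change of 1.59. Shmt2 was at 15.2 ± 1.58 against 5.90 ± 0.89 CPM (1.36) and Mthfd1l at 15.5 ± 2.11 against 6.11 ± 1.01 CPM (1.34). Pycr1 had 55 counts against 2, a ratio of 26.8 after scaling by totals, with an exact 95% interval of 7.08 to 227 for counting error. This ratio too is a description, and no test is read from its interval. Each of the 7 genes called was called in all 12 alternative fits. No ascites library overlapped a thio library in any of them. The share of all genes without overlap was not computed, so nothing is read from that. Aldh18a1 (0.81, SE 0.50) did not pass, and Cth had 17 counts against 3.

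The fold change in thio and the vehicle difference share the thio vehicle libraries and are not independent. The thio population, in which AP-3-84 went with a 3.13-fold higher Mthfd2, had the lower vehicle level. With AP-3-84 it reached 33.3 CPM, below every ascites vehicle library (74.8 to 77.2 CPM). The same holds for Asns, where thio AP-3-84 reached 5.56 ± 1.03 CPM and ascites vehicle was at 7.15 ± 1.37, although these 2 groups overlapped. Markers of other cells and states differed between the populations too. Summed ovarian epithelial or ID8 markers (Krt8, Krt18, Wt1 and others) were 185 to 219 CPM in ascites vehicle and 2.98 to 4.66 CPM in thio vehicle. Of those 7 genes, 3 were detected in all 12 libraries. Summed proliferation genes were 334 to 353 and 111 to 115 CPM, with 11 of 12 called higher in ascites. The part of either in the members' difference was not tested. Of the 23 other 1-carbon and folate genes tested, 9 were higher and 0 lower in ascites, where 20.3% of all genes were higher and 13.4% lower. Of 11 transporters 7 were higher and 1 lower, and of 17 ATF4 regulators 8 were higher and 3 lower. Atf4 did not pass (174 ± 2.97 against 150 ± 3.85 CPM), and Atf3 and Ppp1r15a were lower.

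KO_M0 vehicle libraries held less Mthfd2, Asns, Mthfd1l and Shmt2 than WT_M0. Of 8 genes, 4 were lower and 0 higher, where 16.8% of 11779 genes were called lower and 16.4% higher. Mthfd2 stood at 32.3 ± 4.63 CPM against 109.98 ± 17.1 (log2 fold change -1.77, SE 0.26, edgeR adjusted p = 8.54e-06). Asns was at 12.5 ± 3.08 against 29.6 ± 10.5 CPM (-1.24), Mthfd1l at 12.8 ± 1.41 against 28.7 ± 8.38 (-1.17) and Shmt2 at 21.0 ± 5.09 against 40.5 ± 11.8 (-0.95). Phgdh pointed the other way, at 12.1, 22.2 and 7.57 CPM in KO against 13.7, 3.11 and 2.30 in WT, and did not pass (1.09, SE 0.58). One WT library was high and the other 2 low, and without it (WT_M0 vehicle replicate 1) the log2 fold change was 2.33 and passed (adjusted p = 0.0118). Without that same library the calls of Asns (-0.91) and Shmt2 (-0.69) were lost. The Asns call was also lost without KO_M0 vehicle replicate 2, and the Shmt2 call without KO_M0 vehicle replicate 1. All 12 proliferation genes were lower in KO_M0, with summed levels of 261 to 321 CPM against 1785 to 1907 in WT_M0. Their part in the members' difference was not tested. Of 21 other 1-carbon and folate genes 6 were lower and 0 higher, and of 11 transporters 4 were lower and 0 higher. Of 17 ATF4 regulators 5 were higher and 4 lower.

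In M1 the KO libraries stood higher than WT. Of 8 genes, 5 were higher in KO_M1 vehicle and 0 lower, where 5.93% of genes were called higher and 5.71% lower. They were Phgdh (20.1 ± 5.70 against 3.86 ± 1.66 CPM, log2 fold change 2.40, edgeR adjusted p = 0.0125), Asns (64.7 ± 17.7 against 17.1 ± 1.09, 1.92), Psat1 (71.7 ± 17.8 against 28.0 ± 3.84, 1.35), Shmt2 (69.6 ± 12.0 against 29.6 ± 5.05, 1.23) and Mthfd2 (174 ± 16.2 against 93.1 ± 4.72, 0.90). No KO library overlapped a WT library in these 5 genes, but the share of all genes without overlap was not computed. Asns was called in every fit that left out 1 library, while each of the other 4 lost its call in 3 or 4 of 6, so that 1 gene was called without WT_M1 vehicle replicate 2, 2 without WT_M1 vehicle replicate 3 or KO_M1 vehicle replicate 3, and 3 without WT_M1 vehicle replicate 1. Of 17 ATF4 regulators 8 were higher and 0 lower, among them Atf4 (359 ± 77.1 against 111 ± 6.79 CPM) and Trib3 (56.9 ± 17.1 against 3.18 ± 0.80 CPM). Summed macrophage markers were 16316 to 25726 CPM in KO_M1 vehicle and 44015 to 46963 in WT_M1 vehicle, and neutrophil markers 969 to 2481 and 439 to 566. Proliferation genes summed to 977, 1981 and 1751 CPM in KO_M1 vehicle replicates 1 to 3 and to 932 to 1001 in WT_M1 vehicle. Their part was not tested.

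In KO_M2 against WT_M2 vehicle 1 gene passed, Phgdh at 28.1, 71.9 and 143 CPM against 19.8, 20.2 and 23.1 (log2 fold change 1.95, SE 0.51, edgeR adjusted p = 0.0293), where 1.21% of genes were called higher and 2.34% lower. The count depended on single libraries. It was 6 without KO_M2 vehicle replicate 1 and 0 without any 1 of the other 5 libraries. The log2 fold change of Phgdh in those 5 fits was 1.90 to 2.03, except without KO_M2 vehicle replicate 3, where it was 1.25. Summed macrophage markers were 5969.95 to 18476 CPM in KO_M2 vehicle and 24997 to 30977 in WT_M2 vehicle. Proliferation genes summed to 985 to 2188 CPM in KO_M2 vehicle and to 801 to 1111 in WT_M2 vehicle. Their part was not tested. Within WT vehicle, Mthfd2 was at 109.98 ± 17.1 CPM in M0, 93.1 ± 4.72 in M1 and 110.4 ± 15.6 in M2. Of 8 genes, 0 passed in WT_M1 against WT_M0 (1 at an unadjusted p under 0.05, DESeq2 0), where 15.5% of all genes were called. In WT_M2 against WT_M0, Phgdh alone passed (1.69, SE 0.57, adjusted p = 0.0309), where 12.7% were called higher and 10.7% lower. Its call was lost without any 1 of 5 libraries, all but WT_M0 vehicle replicate 1, and without that library the log2 fold change was 2.94.

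Within KO, both polarized states held more than M0. In KO_M1 against KO_M0 5 of 8 genes were higher, where 22.8% of genes were called higher and 21.8% lower. They were Mthfd2 (2.43, SE 0.27, edgeR adjusted p = 3.57e-08), Asns (2.36), Shmt2 (1.73), Psat1 (1.72) and Mthfd1l (1.45), with Phgdh at 0.55 and not called. In KO_M2 against KO_M0 all 8 genes tested were higher, where 20.1% were called higher and 18% lower. Phgdh had the largest log2 fold change (2.55, SE 0.53, adjusted p = 0.000424), followed by Mthfd2 (2.22) and Asns (2.16). The calls of Psph (1.85) and Aldh18a1 (2.06) rested on single libraries and 8 calls fell to 6 without KO_M0 vehicle replicate 3 or KO_M2 vehicle replicate 3. The summed proliferation genes were higher beside them, from 261 to 321 CPM in KO_M0 to 977 to 1981 in KO_M1 and 985 to 2188 in KO_M2. The summed macrophage markers were lower, from 32521 to 39143 CPM in KO_M0 to 16316 to 25726 in KO_M1 and 5969.95 to 18476 in KO_M2. Neutrophil markers went from 569 to 720 CPM in KO_M0 to 969 to 2481 in KO_M1 and 339 to 3276 in KO_M2. Their part was not tested.

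**Figure D4:**
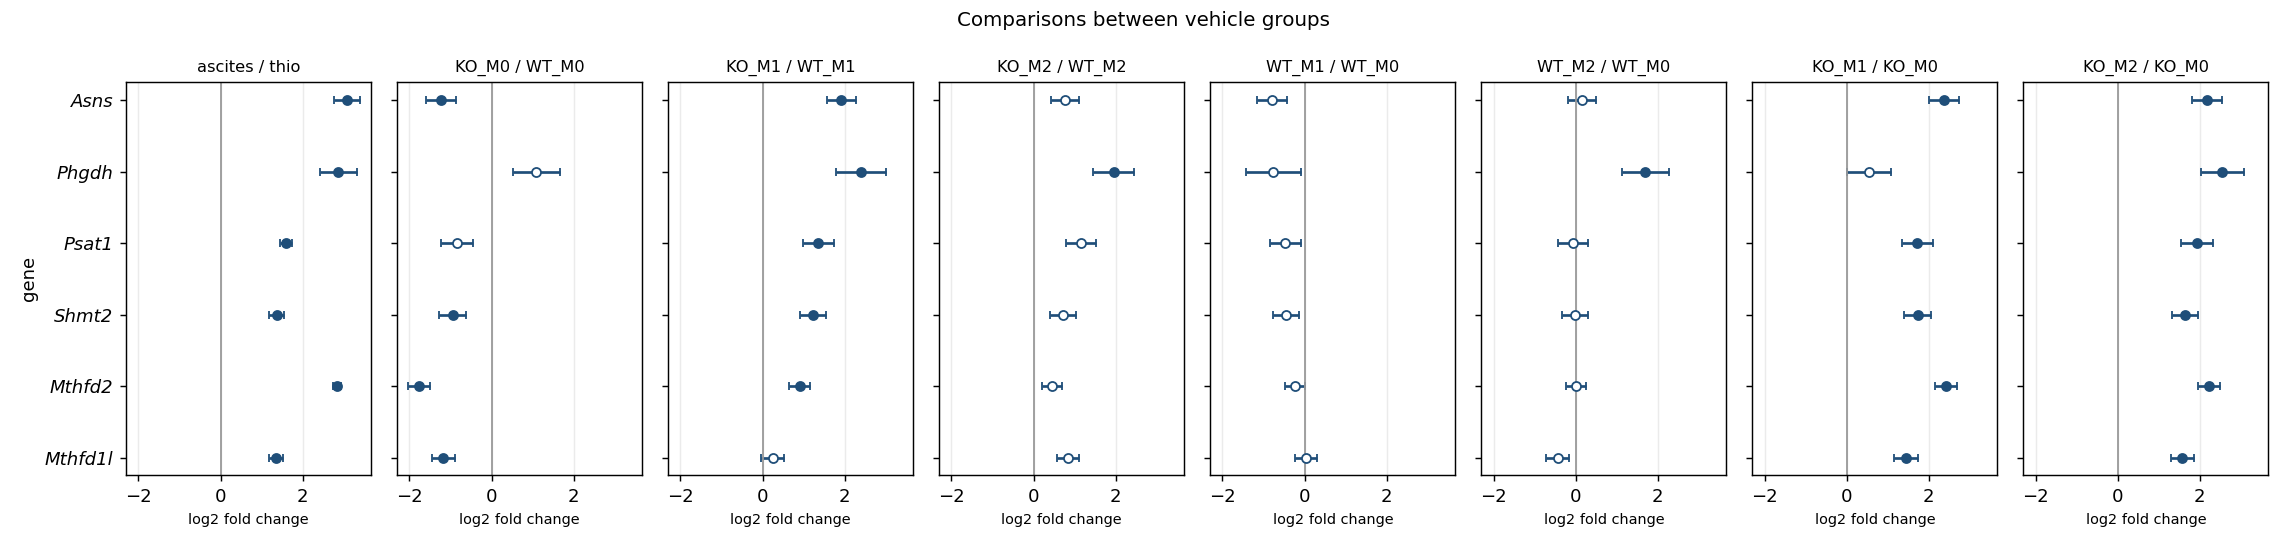
Log2 fold change between vehicle groups (points) with its standard error (bars) for 6 genes, 3 libraries against 3 in each panel. Filled points passed an edgeR adjusted p under 0.05. Mthfd2 is at 2.84 in ascites against thio, at -1.77 in KO_M0 against WT_M0 and at 2.43 in KO_M1 against KO_M0.

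The change with polarization differed between genotypes by its own test, a pair of comparisons added after the values were seen. For M1 against M0, KO minus WT, 5 of 8 genes passed as higher, where 11.2% of genes did and 9.51% were lower. The difference was 3.16 (SE 0.51, edgeR adjusted p = 5.51e-05) for Asns and 2.67 (SE 0.36) for Mthfd2. For M2 against M0, 7 of 8 passed as higher, where 13.9% did and 13.2% were lower, with Mthfd2 at 2.21 (SE 0.36) and Phgdh (0.86, SE 0.77) not called. Without WT_M0 vehicle replicate 1 the M2 count fell to 5, as the calls of Psph and Aldh18a1 (3.34) were lost, and the Mthfd1l call was lost for M1 (1.15). The Psph call was also lost without WT_M0 vehicle replicate 2, WT_M2 vehicle replicate 3, KO_M0 vehicle replicate 3 or KO_M2 vehicle replicate 3 (1.68), and with only the compared groups fitted. The AP-3-84 response of KO_M0, its distance from WT_M0 and its distance from KO_M1 and KO_M2 all share the same 3 KO_M0 vehicle libraries, so they are not independent of one another. The treated KO_M0 libraries were at 106 to 309 CPM of Mthfd2, a range that holds the KO_M1 and KO_M2 vehicle libraries (116 to 184 CPM).

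The members varied together to different degrees. Over the 36 bone marrow-derived libraries, the Pearson r with Mthfd2 of log2(CPM + 1) was 0.85 for Asns, 0.81 for Shmt2, 0.76 for Psat1, 0.73 for Mthfd1l and 0.36 for Phgdh. Asns ranked 4 and Shmt2 11 among the 8430 genes compared. The 5 genes outside the group with the most similar pattern were Slc7a1 (0.86), Tes (0.85), Aars (0.85), Hax1 (0.84) and Set (0.84). Slc7a1 imports cationic amino acids and Aars charges the alanine tRNA. Over the 12 peritoneal libraries, Slc7a1 (0.99), Met (0.99), Serpinb9 (0.99), Rnd3 (0.98) and Me1 (0.98) were the nearest, and the members lay between 0.63 for Aldh18a1 and 0.95 for Asns. Libraries of a group share its level, so these values describe likeness across groups and carry no test. Among pairs of the 6 well-covered genes the median r was 0.73 (0.12 to 0.91) over bone marrow-derived and 0.92 (0.66 to 0.96) over peritoneal libraries.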

How the data were processed

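RNA of 48 macrophage libraries in 16 groups of 3 was measured by 3′ mRNA sequencing. QuantSeq FWD libraries were made from 100 ng of RNA and read as single 75-base reads, per the labels' protocols. The deposited table holds raw counts per gene and library, all of them whole numbers. RSEM, Bowtie2 and DESeq2 are named in the submitters' processing notes without versions or roles. Which build and annotation were used, and whether estimated counts were rounded or molecular identifiers applied, is not given in the sources used here. Without identifiers reads are not independent molecules, and intervals on counts cover counting error only.

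Groups follow titles and descriptions. Symbols and coordinates came from GENCODE M21 (GRCm38), in which 51596 of 51789 gene IDs were found, and promoters from RefSeq. Within groups, libraries differed beyond counting noise (chi-square per gene 5.61 to 27.9 over 12 peritoneal pairs and 2.57 to 42.6 over 36 bone marrow-derived pairs).

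The test was edgeR's quasi-likelihood F test (version 4.0.16, R 4.3.3) (filterByExpr by group, TMM scaling, robust dispersion, 1 mean per group). The 12 peritoneal libraries (16955 genes tested) and the 36 bone marrow-derived libraries (11779 genes tested) were fitted apart. Genes were called at a two-sided Benjamini-Hochberg adjusted p under 0.05 over all genes of a comparison. SE is the log2 fold change divided by the root of the F statistic, and approximate 95% intervals are 1.96 SE on both sides. The fitting steps were tested on simulated counts before use. There were 22 comparisons, 2 of them added after values were seen. Alternatives were median-ratio size factors, total-count scaling, no filter, DESeq2 1.42.0, only the compared groups, a replicate block, and each library left out in turn.

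The 10 genes and the lists of pathway and marker genes were chosen with earlier results of these data known. The text names all 10 genes, Atf4, Ddit3 and Trib3 for AP-3-84, and per list at most 2 higher and 2 lower genes with the lowest p. For likeness to Mthfd2 it names the 5 most similar genes with an average log2 CPM of at least 3. Lists were described by counts.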

Additional observations from a re-analysis of the deposited data

Results flagged for a closer look

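Of the results reported, 17 differences between genotypes passed the test of the difference itself (an interaction term in edgeR, adjusted p under 0.05). No group had the 4 libraries that a check for a single outlying library needs.

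For the response to AP-3-84 in KO_M0 minus that in WT_M0, in log2 units, 5 of 8 genes passed: Mthfd2 (2.87), Asns (2.34), Shmt2 (1.86), Psat1 (1.74) and Mthfd1l (1.56). Of all genes, 10% were called higher and 6.99% lower there. The 2 comparisons of polarization that follow were added after the values were seen. For M1 against M0 in vehicle, KO minus WT, 5 of 8 passed: Asns (3.16), Mthfd2 (2.67), Psat1 (2.19), Shmt2 (2.18) and Mthfd1l (1.41). The shares of all genes were 11.2% higher and 9.51% lower. For M2 against M0 in vehicle, KO minus WT, 7 of 8 passed: Aldh18a1 (4.15), Psph (2.77), Mthfd2 (2.21), Mthfd1l (2.01), Asns (2.00), Psat1 (1.99) and Shmt2 (1.66). The shares of all genes were 13.9% higher and 13.2% lower. Aldh18a1 and Psph rest on few counts, 10 and 23 over the KO_M0 vehicle libraries. The calls of Psph and Aldh18a1 for M2 and of Mthfd1l for M1 were lost without WT_M0 vehicle replicate 1, and that of Psph also without any 1 of 4 other libraries. That of Psat1 for AP-3-84 was lost without any 1 of 5 libraries. Every one of these 17 values uses the same 3 KO_M0 vehicle and 3 WT_M0 vehicle libraries.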

How the results depend on the processing

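Of 57 called values of single members, 42 were called in every alternative and 15 were lost in at least 1. The 57 include 2 calls in thio and 1 in ascites minus thio, the contrasts that chose the genes. They also include 8 calls in vehicle ascites against thio, with Pycr1 among them, which are not independent of that choice. The tally is therefore a description, and no stability of those calls is read from it. Of 123 uncalled values, 24 were called in an alternative, and 0 called values changed sign. Counts of members called moved by over 1.5 times in these cases, and the cause was not tested. Without a filter on low counts they were 4 for AP-3-84 in KO_M2 (0 with the filter), 2 for ascites minus thio (1), 5 for KO_M2 minus WT_M2 (0), 7 for KO_M0 against WT_M0 (4), 5 for KO_M2 against WT_M2 (1), 1 for WT_M1 against WT_M0 (0) and 2 for WT_M2 against WT_M0 (1). DESeq2 gave 1, 2 and 2 in the first 3 of these and 2 in KO_M2 against WT_M2. Total-count scaling gave 1 for KO_M2 minus WT_M2, 3 for KO_M2 against WT_M2 and 1 for WT_M1 against WT_M0. With only the compared groups there was 0 for KO_M2 against WT_M2, 1 for WT_M1 against WT_M0 and 0 for WT_M2 against WT_M0. Leaving out 1 library gave 0 to 4 for AP-3-84 in KO_M2, 0 to 5 for KO_M2 minus WT_M2, 1 to 5 for KO_M1 against WT_M1, 0 to 6 for KO_M2 against WT_M2 and 0 to 1 for WT_M2 against WT_M0. Replicate numbers did not pair the libraries: deviations of same-numbered libraries correlated at over 0.1 for every number in 0 of 2 peritoneal and 0 of 6 bone marrow-derived populations, and over all pairs of groups in 0 of 6 and 3 of 66. With the replicate number as a block the count was the same in all comparisons but KO_M2 against KO_M0, where it was 7, without Aldh18a1. Depth limits Psph, Aldh18a1, Pycr1 and Cth, whose counts per library fell to 2, 1, 0 and 0.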

Other observations

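Neighbouring amino acid pathways moved in both directions in KO_M0 macrophages with AP-3-84. These lists were chosen with earlier results of these data known, and 12.1% of all genes were called higher and 8.57% lower. Of 18 other glutamate, proline, aspartate and arginine genes tested, 5 rose and 3 fell. Ass1, which makes argininosuccinate from citrulline and aspartate, rose from 3.28 to 13.6 CPM (means of 3 libraries, log2 fold change 2.06, SE 0.39, adjusted p in edgeR = 0.000336). Glul, glutamine synthetase, fell from 536 to 185 CPM (-1.54, SE 0.25, adjusted p = 8.07e-05), and Prodh, which degrades proline, fell from 3.79 to 0.776 CPM. Of 7 genes of transsulfuration and the methionine cycle, 3 rose and 0 fell, among them Mat2a, which makes S-adenosylmethionine (218 to 334 CPM), and Amd1, which commits it to polyamines (75.3 to 251 CPM).

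In vehicle, Ass1 was also higher in ascites than in thio macrophages (69.5 against 2.70 CPM, log2 fold change 4.70, SE 0.18) and lower in KO_M0 than in WT_M0 (3.28 against 37.4 CPM, -3.51, SE 0.37). Arg1, arginase 1 and a marker of M2 cells, was at 535 CPM in ascites and 82.5 CPM in thio vehicle (2.70, SE 0.09).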
